A study of Mus musculus with 6 samples.

Results

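The Krüppel-like factors described here are 10 transcription factor genes, Klf2, Klf3, Klf4, Klf5, Klf6, Klf7, Klf9, Klf10, Klf12 and Klf13, measured in PICs and satellite cells of young mouse muscle. They are members of the family by gene name, were chosen with earlier results of these data known, and are not the whole family. All 10 were among the 10855 genes tested. PICs are interstitial muscle cells named for the protein PW1, which Peg3 encodes. Satellite cells are the muscle stem cells that lie under the basal lamina of fibres. Both populations came from hindlimb muscle of C57 black 6 mice 7 to 9 days old, and were separated by flow cytometry on CD34 and Sca1; the labels name no treatment or transgene. Each has 3 Affymetrix arrays that the labels call biological replicates. The labels do not say which animals went into each, so p-values measure the spread between these arrays.

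Krüppel-like factors share a carboxy-terminal set of zinc fingers that binds CACCC and GC-rich boxes in DNA, and differ in the part of the protein that recruits partners. Klf3 and Klf12 bind the corepressor CtBP. Klf9, Klf10 and Klf13 bind the corepressor Sin3a, and Klf2, Klf4, Klf5, Klf6 and Klf7 act mainly as activators through acetyltransferases, although Klf4 can repress as well. In muscle and its vessels the family is known for Klf2 and Klf4 downstream of the kinase ERK5 and Mef2 factors, for Klf5 in muscle differentiation and smooth muscle, and for Klf3 at promoters of muscle genes. Several members, among them Klf2, Klf4, Klf6 and Klf10, are also induced quickly by growth factors and stress.

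Promoter windows of 300 bases were at hand for 8 of the 10 genes, from RefSeq on GRCm38.p6, and 3 are printed because the family's own binding motif or that of a known inducer can be read in them. Each runs from 250 bases before the annotated start to 50 bases after it, 5′ to 3′ along the gene. Capitals mark the core of Mef2 sites, CTA and TAG with any 4 bases between them, in Klf2 (chr8:72318812-72319111, plus strand), the CACCC box in Klf3 (chr5:64803271-64803570, plus strand) and the GC box GGGCGG in Klf4 (chr4:55532426-55532725, minus strand), each on either strand.
Klf2: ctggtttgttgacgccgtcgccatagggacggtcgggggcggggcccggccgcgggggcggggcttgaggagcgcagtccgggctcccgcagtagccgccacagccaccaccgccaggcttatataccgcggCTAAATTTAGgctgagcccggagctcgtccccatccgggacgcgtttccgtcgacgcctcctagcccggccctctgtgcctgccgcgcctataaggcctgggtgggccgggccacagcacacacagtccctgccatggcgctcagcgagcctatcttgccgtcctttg
Klf3: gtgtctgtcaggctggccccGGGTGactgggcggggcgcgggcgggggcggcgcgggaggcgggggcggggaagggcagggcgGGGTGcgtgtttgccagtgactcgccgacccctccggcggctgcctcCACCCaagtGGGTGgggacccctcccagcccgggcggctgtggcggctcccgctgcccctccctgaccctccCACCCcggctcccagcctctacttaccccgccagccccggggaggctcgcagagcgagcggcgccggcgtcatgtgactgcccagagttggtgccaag
Klf4: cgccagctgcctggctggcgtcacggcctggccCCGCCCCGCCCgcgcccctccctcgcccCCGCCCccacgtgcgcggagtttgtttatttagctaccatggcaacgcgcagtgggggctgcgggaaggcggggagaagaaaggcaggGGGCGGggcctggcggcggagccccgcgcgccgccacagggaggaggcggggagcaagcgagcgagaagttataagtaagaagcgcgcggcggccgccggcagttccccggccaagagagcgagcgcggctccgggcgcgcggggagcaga
The Klf2 window held the core once, as CTAAATTTAG, beginning 118 bases before the start, and 3.69% of all 32851 windows held it. The Klf3 window held 5 CACCC boxes, 1 of which overlapped a GC box, and the box occurred in 6 of the 8 windows against 57.5% of all windows. The Klf4 window held 4 GC boxes, with 1 pair overlapping, and no CACCC box in this window. GC boxes occurred in 6 of the 8 windows and in 35.7% of all windows. The AP-1 motif TGANTCA, searched in the same way, occurred in Klf9 among these 8 and in 7.81% of all windows, and overlapped a CACCC box there. These matches describe letters in a window and not binding.

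Transcript levels were deposited as linear GCRMA intensities, which are given here for each array, while differences and tests are on the log2 scale, PICs minus satellite cells. The median intensity was 10 on each array. Over genes, 2 arrays correlated at 0.956 to 0.986 within a population and at 0.800 to 0.850 between the populations. A call required a limma adjusted p under 0.05 together with a log2 difference of at least 1 in size. The 8 satellite cell markers were all called higher in satellite cells and the 8 interstitial mesenchymal markers all called higher in PICs. The latter included Cd34, whose protein was used to separate the populations, so its call is not independent of the sort. Clec3b lay below an intensity of 16 on every satellite array. It passed the filter on low values only through PICs, which fixed its direction. Summed intensities of the satellite markers were 1230 to 3115 in PICs and 34236 to 38396 in satellite cells. Summed mesenchymal markers were 88416 to 91891 in PICs and 11622 to 21363 in satellite cells. All 10 Klf genes lay above the low value level (intensity 16) on every array.

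Of the 10 Klf genes, Klf3, Klf5, Klf7 and Klf12 were called higher in PICs and 0 were called higher in satellite cells, against 29.8% of all genes called (16.7% higher in PICs, 13% higher in satellite cells). The arrays of the populations did not overlap in 7 of the 10 genes, of which 5 had the PIC arrays on top and 2 the satellite arrays. Over all genes 64.6% showed such a gap, 31.3% with PICs and 33.2% with satellite cells on top. The median log2 difference was 1.29 over the 10 genes and -0.04 over all genes tested. Both populations carry replicate numbers 1 to 3. Deviations of arrays of equal number correlated across genes at 0.623, 0.222 and 0.579 for numbers 1, 2 and 3. With the number as a block, 6 of the 10 genes were called, all higher in PICs, against 30.4% of all genes (17.1% higher in PICs, 13.3% higher in satellite cells). The added calls were Klf2 and Klf4. In bulk samples such as these, fewer cells of a type and less RNA per cell cannot be told apart.

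**Figure D1:**
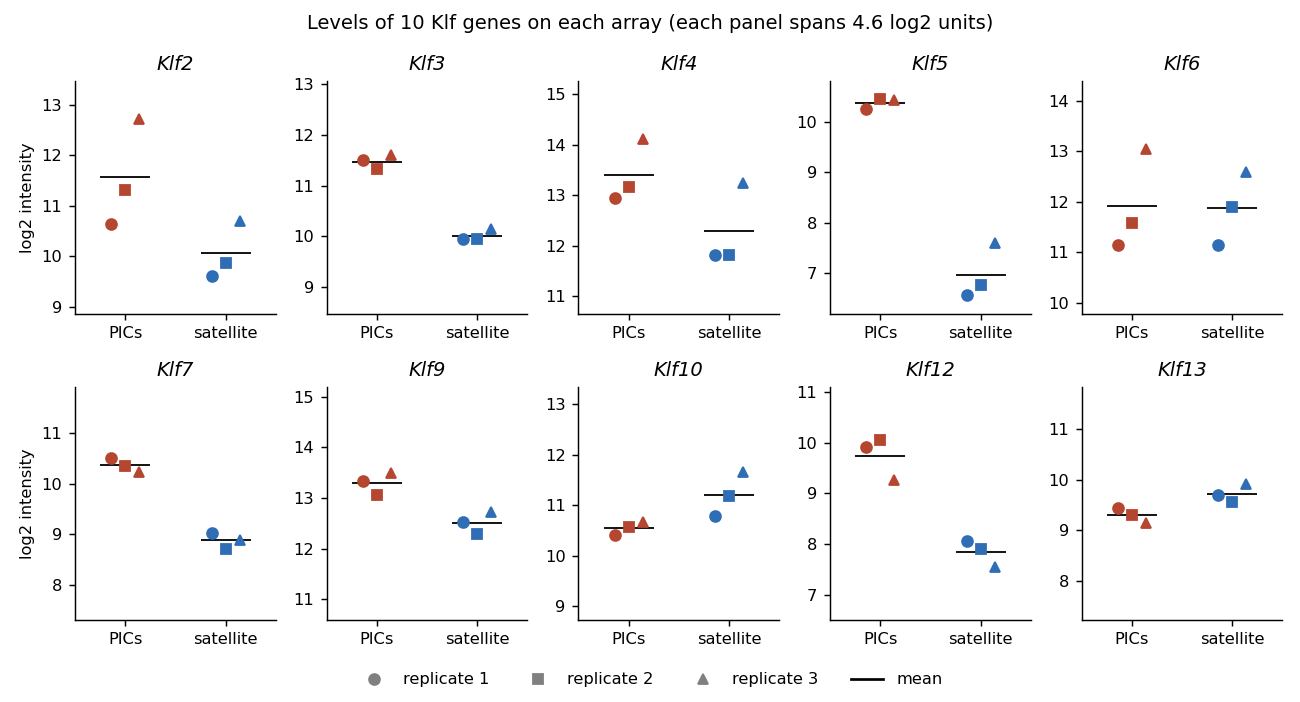
Log2 intensity of 10 Klf genes (y axis) on each PIC array (red, left) and satellite array (blue, right), with symbols for the replicate number and a line at the mean of 3 arrays. Every panel spans the same number of log2 units, so that distances compare between panels; Klf5 shows the widest gap and Klf6 none, and replicate 3 stands highest in both populations for Klf2, Klf4 and Klf6.

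Klf5 had the widest difference of the activating members. It encodes a factor of proliferating epithelium and smooth muscle that also takes part in muscle differentiation. Its intensity was 1226, 1389 and 1388 on the PIC arrays, against 95, 109 and 193 on the satellite arrays. All PIC arrays lay far above all satellite arrays, and the satellite array numbered 3 was the highest of its population. The log2 difference was 3.40 (95% interval 2.75 to 4.05), which is 10.6-fold (limma, adjusted p = 0.000153). Another Klf5 probe set was also called, at 88, 66 and 51 in PICs against 27, 30 and 39 in satellite cells, a smaller log2 difference of 1.08 (adjusted p = 0.0117 over probe sets). Both probe sets place Klf5 higher in PICs, but the sizes differ, 10.6-fold and 2.11-fold.

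Klf7, an activator known from neurons and from inhibition of adipocyte differentiation, was called on all 4 of its probe sets. The probe set standing for the gene read 1451, 1302 and 1198 in PICs against 521, 418 and 474 in satellite cells, a log2 difference of 1.48 (95% interval 1.16 to 1.81; limma, adjusted p = 0.000233). The differences of the 4 probe sets lay between 1.48 and 1.85, or 2.80-fold to 3.61-fold. They parted in another respect. On 2 of them the arrays numbered 3 were the lowest in both populations. One read 902, 783 and 268 on PIC arrays 1, 2 and 3 against 241, 185 and 120 on satellite arrays 1, 2 and 3, and the other 1433, 1345 and 678 against 493, 333 and 219. Against the other numbers, the arrays numbered 3 differed by -1.23 and -0.96 log2 units on these probe sets, and by -0.09 and -0.10 on the remaining ones.

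Klf2 and Klf4, factors of endothelial quiescence and, for Klf4, of pluripotency and barrier epithelium, had higher values in PICs within each replicate number but spread widely among arrays. Klf2 read 1604, 2549 and 6771 on PIC arrays 1, 2 and 3 against 782, 935 and 1665 on satellite arrays 1, 2 and 3. The lowest PIC array lay below the highest satellite array, so the populations overlapped, and the array numbered 3 was the highest in each. The log2 difference of 1.50 (95% interval 0.16 to 2.85) had an adjusted p of 0.0581 in limma and was not called. Within replicate numbers 1, 2 and 3 it was 1.04, 1.45 and 2.02, and with the number as a block the adjusted p was 0.00361 (95% interval 0.95 to 2.06).

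Klf4 spread widely too on the probe set standing for it, which read 7920, 9131 and 17613 on PIC arrays 1, 2 and 3 against 3598, 3627 and 9720 on satellite arrays 1, 2 and 3. Only the satellite array numbered 3 reached into the PIC range. The log2 difference was 1.11 (95% interval -0.04 to 2.26; limma, adjusted p = 0.0913), or 0.00212 with the block. Its other probe set read 1111, 1427 and 1819 in PICs against 454, 495 and 898 in satellite cells, without overlap, and was called at 1.28 (adjusted p = 0.0163 over probe sets). Endothelial cells are a known source of both transcripts, and 0 of 10 endothelial markers were called by limma, with 0 at an unadjusted p under 0.05. Their summed intensity was 8318, 5859 and 2339 on PIC arrays 1, 2 and 3 and 6099, 4355 and 4148 on satellite arrays 1, 2 and 3. Single markers did not all follow the sum, and among the satellite arrays Tek and Cldn5 were highest on array 3. Their part in the levels of Klf2 and Klf4 was not tested.

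Klf6, an activator first described in placenta and in liver stellate cells, showed no difference that the arrays could resolve. It read 2253, 3068 and 8387 on PIC arrays 1, 2 and 3 against 2269, 3808 and 6113 on satellite arrays 1, 2 and 3. The ranges overlapped almost entirely, and the log2 difference was 0.04 (limma, adjusted p = 0.956). Its 95% interval of -1.32 to 1.41 was wide, and narrowed to between -0.41 and 0.50 with the replicate block (adjusted p = 0.839). All 5 Klf6 probe sets gave differences between -0.07 and 0.09, and limma called 0 of them, with 0 at an unadjusted p under 0.05.

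**Figure D2:**
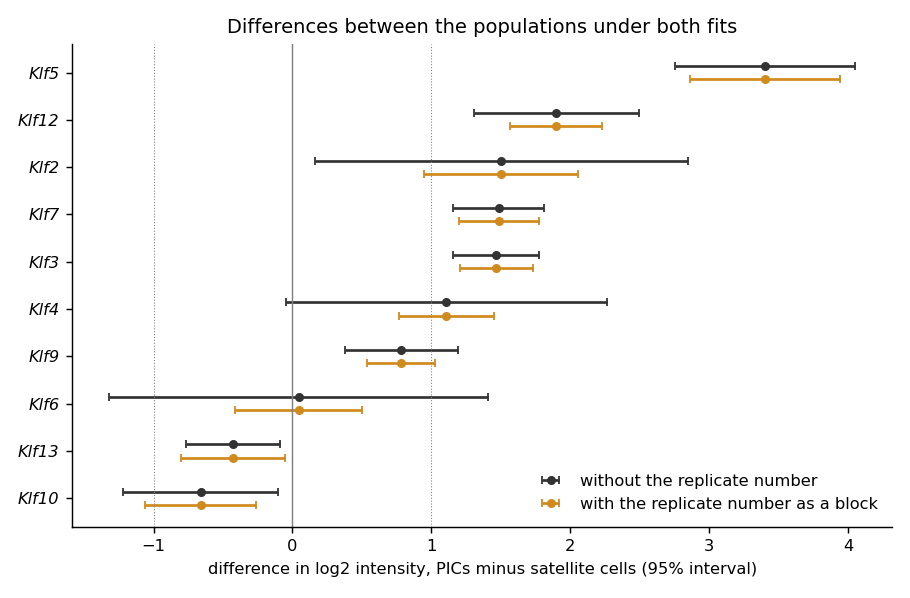
Difference in log2 intensity, PICs minus satellite cells (x axis), for each Klf gene, with 95% intervals from the fit without the replicate number (black) and with it as a block (orange). Dotted lines mark the smallest difference called; the intervals of Klf2, Klf4 and Klf6 shorten most under the block, and Klf13 and Klf10 lie below 0.

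The CtBP-binding members were both called higher in PICs. Klf12, first described as a repressor of the AP-2alpha gene, read 967, 1059 and 613 in PICs against 268, 240 and 188 in satellite cells. Every PIC array lay above every satellite array, with a log2 difference of 1.90 (95% interval 1.31 to 2.49), 3.73-fold (limma, adjusted p = 0.000882). All 3 of its probe sets that passed the filter were called, at 2.66-fold to 3.73-fold. They differed over the arrays numbered 3. The probe set standing for the gene was lowest there in both populations (-0.58 against the other numbers), and another, at 569, 566 and 751 in PICs and 144, 162 and 242 in satellite cells, was highest there (0.53).

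Klf3, a repressor in blood and fat that in muscle cells is known to bind muscle gene promoters, read 2914, 2556 and 3102 in PICs against 980, 984 and 1135 in satellite cells. The populations were far apart and the arrays of each lay close together. The log2 difference was 1.47 (95% interval 1.16 to 1.77), 2.76-fold (limma, adjusted p = 0.000203). Of 6 Klf3 probe sets that passed the filter, 3 were called higher in PICs and 4 showed no overlap. The others included one near the low value level, at 33, 27 and 27 in PICs and 26, 27 and 27 in satellite cells. With the mean of the 6 probe sets in place of the brightest one, the difference was 0.85 and Klf3 was not called.

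The Sin3a-binding members had differences under 2-fold, and 0 of 3 were called by limma. In limma the adjusted p was 0.00762 for Klf9, 0.0486 for Klf10 and 0.0382 for Klf13. Over the alternatives tried it reached 0.0673 for Klf9, 0.222 for Klf10 and 0.136 for Klf13. How many of all genes or probe sets lay under 0.05 without the 2-fold condition was not counted. Klf9, which glucocorticoids and thyroid hormone induce, read 10349, 8559 and 11502 in PICs against 5883, 5022 and 6747 in satellite cells. The populations did not overlap, and the log2 difference of 0.78 (95% interval 0.38 to 1.19) passed the p threshold (limma, adjusted p = 0.00762) but not the 2-fold one. All 5 probe sets that passed the filter showed PICs higher without overlap, by 1.35-fold to 1.87-fold, and all 5 had an adjusted p under 0.05.

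Klf10 and Klf13 lay on the other side. Klf10, an early response gene of TGF-beta signalling, read 1355, 1517 and 1631 in PICs against 1762, 2312 and 3255 in satellite cells. The satellite arrays were all higher, 1.58-fold on average, with a log2 difference of -0.66 (95% interval -1.22 to -0.10; limma, adjusted p = 0.0486; 0.0168 with the replicate block). At replicate numbers 1, 2 and 3 the difference was -0.379, -0.608 and -0.997. Klf13, known from lymphocytes and heart, read 693, 634 and 570 in PICs against 835, 758 and 964 in satellite cells, again without overlap. Its log2 difference was -0.43 (95% interval -0.76 to -0.09; limma, adjusted p = 0.0382; 0.0524 with the replicate block). The second Klf13 probe set, at 280, 263 and 162 in PICs and 475, 305 and 279 in satellite cells, overlapped slightly and differed by -0.59 (adjusted p = 0.146 over probe sets; 0.0298 with the block). These sizes are all under 2-fold.

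**Figure D3:**
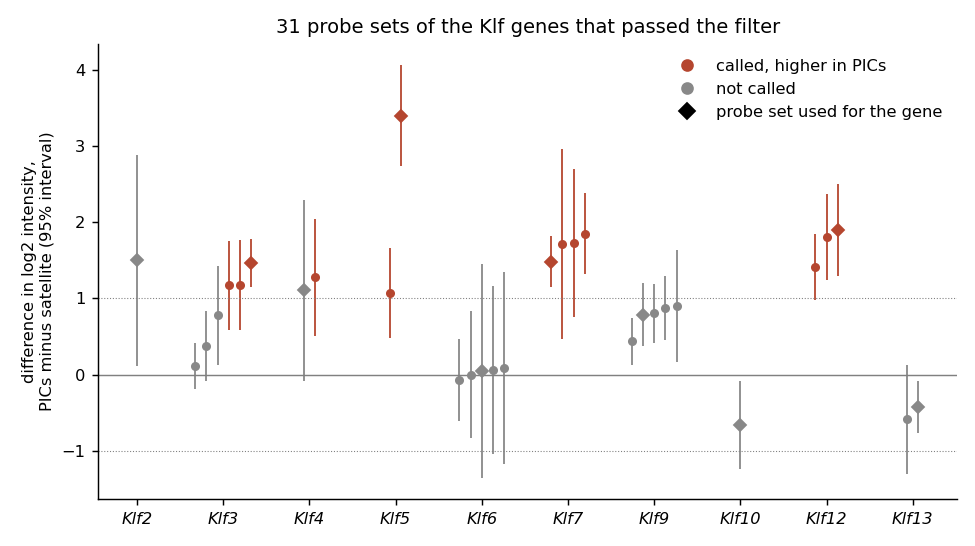
Difference in log2 intensity, PICs minus satellite cells, with 95% intervals (y axis) for the 31 probe sets that passed the filter, grouped by gene; diamonds stand for the probe set used for the gene and red marks a call. All 4 Klf7 and all 3 Klf12 probe sets were called, the 5 Klf6 probe sets lie near 0, and 3 of 6 Klf3 probe sets were called.

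Over single probe sets, the 10 genes had 38, of which 31 passed the filter on low values. Of these 31, 13 were called, all towards PICs, against 27.9% of all probe sets tested (15.1% higher in PICs). Arrays did not overlap in 21 of the 31, of which PICs lay on top in 19 and satellite cells in 2, and 59.9% of all probe sets showed such a gap. No gene had probe sets called in opposite directions. The remaining 7 fell short of that filter and lay at an intensity of 9 or less on every array. Probe sets of 1 gene share its transcripts and are no replicates of each other.

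The spread among arrays of a population was graded over the members, on the probe set standing for each gene. Deviations from the population means spanned 2.08 log2 units for Klf2, 1.90 for Klf6, 1.43 for Klf4 and 1.02 for Klf5 over the 6 arrays. They spanned 0.89 for Klf10, 0.79 for Klf12 and 0.44 for Klf9. For Klf13, Klf7 and Klf3 they spanned 0.35, 0.32 and 0.30. The place of a gene depends on that probe set. The standard deviation of Klf7 over the PIC arrays was 0.14 on it, and 0.96, 0.60 and 0.24 on its others. In 6 of the 10 genes, Klf2, Klf3, Klf4, Klf6, Klf9 and Klf10, the array numbered 3 was the highest in both populations, and 28.3% of all genes shared that pattern. This held for the probe set standing for each gene. Other Klf3 probe sets were lowest there in both populations, by -0.53 and -0.48 log2 units against the other numbers. A Klf9 probe set was lowest there too (-0.19), while some others of Klf9 were highest there. The number is only a name and its arrays have no order.

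A test of the replicate number across both populations, limma's moderated F test beside the population, called 0 of the 10 genes at an adjusted p under 0.05, with 5 of them at an unadjusted p under 0.05. It called 0.544% of all genes, or 59, and 1939 had an unadjusted p under 0.05. The members nearest to the threshold were Klf4 (adjusted p = 0.0855), Klf6 (0.101) and Klf2 (0.145). Over single probe sets the same test called 0 of 31, with a lowest adjusted p of 0.0569, against 2.07% of all probe sets called. Of the 31, 18 had an unadjusted p under 0.05, and the share of all probe sets at that level was not counted. Klf6 lay 1.36 log2 units higher on the arrays numbered 3 than on the others, Klf2 1.35 and Klf4 1.24.

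**Figure D4:**
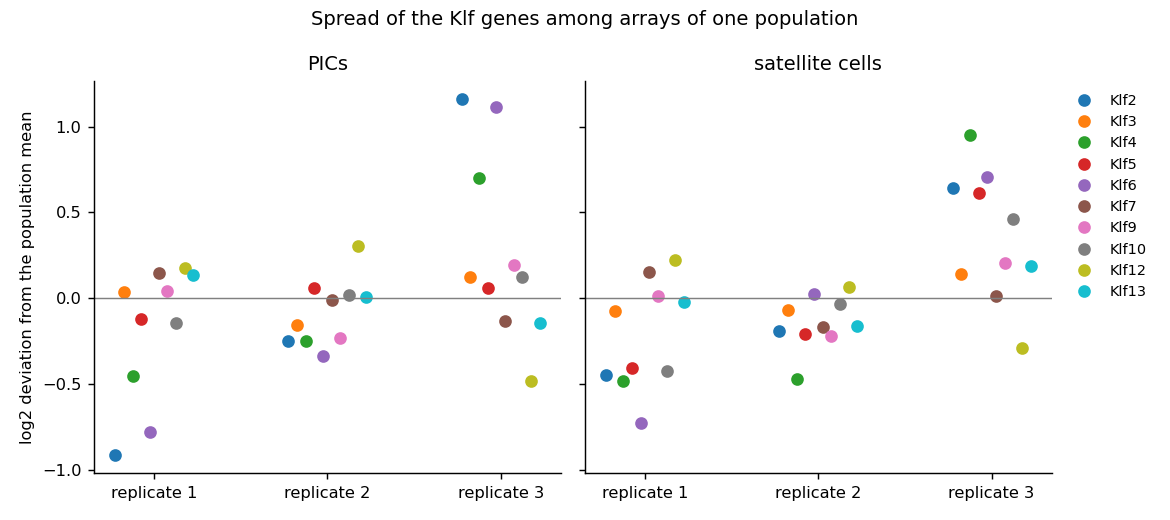
Deviation of each Klf gene from its population mean in log2 units (y axis) on the 3 PIC arrays (left) and 3 satellite arrays (right), 1 colour per gene. Klf2, Klf4 and Klf6 lie above 0 on the arrays numbered 3 and below 0 on those numbered 1 in both populations, and Klf12 lies below 0 on those numbered 3.

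Immediate early genes, which growth factors and cell handling induce within minutes, were measured beside these members. In 16 of 19 the array numbered 3 was the highest in both populations, and the median excess of number 3 over the other numbers was 1.25 log2 units, against 0.37 over the 10 Klf genes and 0.05 over all genes. The F test called 5 of the 19, Fosb, Fosl2, Egr2, Nr4a1 and Socs3, by 1.25 to 2.35 log2 units. Leukocyte and endothelial markers went the other way, with median values of -2.89 over 4 tested leukocyte markers and -1.06 over 10 endothelial markers. Summed over 9 leukocyte markers, intensities were 2603, 322 and 95 on PIC arrays 1, 2 and 3 and 3420, 192 and 134 on satellite arrays 1, 2 and 3, with Cd3e, Cd79a and Itgam at the low value level on every array. The part of any of these in the spread of Klf2, Klf4 and Klf6 was not tested. Between the populations, 1 of the 19 immediate early genes was called, Egr3, which was 4.64-fold higher in PICs (limma, adjusted p = 0.0274). With the replicate block Myc was called too, higher in satellite cells (-1.61, adjusted p = 0.00106).

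Among the other Klf genes on the arrays, Klf14 and Klf15 were called higher in PICs and 0 of 4 tested were called higher in satellite cells. Klf14, an imprinted gene of the Sin3a-binding group known as a regulator in adipose tissue, was 9.99-fold higher in PICs (log2 difference 3.32; limma, adjusted p = 0.000329). Klf15, a metabolic regulator that glucocorticoids induce in muscle, was 2.67-fold higher (1.42, adjusted p = 0.000261). Klf11 and Klf16, relatives of Klf10 and Klf13, differed by -0.44 (adjusted p = 0.463) and -0.75 (adjusted p = 0.0286) and were not called. Klf1 and Klf17 lay too low to be tested. The related Sp factors, which bind the same GC boxes, had 0 of 3 tested genes called by limma and 0 at an unadjusted p under 0.05, and Sp1, Sp3 and Sp4 differed by 0.00 (adjusted p = 0.998), 0.23 (adjusted p = 0.193) and -0.51 (adjusted p = 0.0829).

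Among corepressors and coactivators 2 of 12 were called, Sap30, a subunit of the Sin3 complex, 5.34-fold higher in satellite cells (-2.42, adjusted p = 5e-05) and Fhl2, a LIM-domain coactivator, 7.90-fold higher in PICs (2.98, adjusted p = 0.000282). Sin3a itself differed by -0.94 (adjusted p = 0.00067), under the 2-fold threshold, and Ctbp1 and Ctbp2 by -0.23 and -0.25 (adjusted p = 0.2 and 0.179). Their median over the 12 genes was -0.23, beside -0.04 over all genes.

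Of the 7 ERK5 and Mef2 genes 0 were called by limma, with 4 at an unadjusted p under 0.05, and their median difference was -0.19. Mapk7, which encodes ERK5, differed by -0.19 (adjusted p = 0.28). The kinase genes Map2k5, Map3k2 and Map3k3 upstream of it differed by -0.31, 0.72 and 0.61 (adjusted p = 0.0938, 0.00551 and 0.00425). Mef2a, Mef2c and Mef2d differed by -0.36, 0.31 and -0.80 (adjusted p = 0.0469, 0.362 and 0.0028). All of these were under 2-fold. The glucocorticoid receptor gene Nr3c1 was the 1 call among 6 genes of glucocorticoid response, 2.11-fold higher in PICs (1.08, adjusted p = 0.000595). The median difference over the 6 was -0.13. Per1, Fkbp5, Sgk1, Dusp1 and Tsc22d3 differed by -0.46, -0.37, -0.19, -0.08 and -0.01 and were not called. Of 5 ubiquitin ligases that act on Klf proteins, Wwp1 was called, 2.04-fold higher in PICs (1.03, adjusted p = 0.000946). In the TGF-beta response list 2 of 7 genes were called, both higher in satellite cells, although the median difference over the 7 was 0.23. They were Tgif1, a corepressor of Smad factors (-1.55, adjusted p = 0.0246), and Id1, an inhibitor of bHLH factors (-1.13, adjusted p = 0.0164). Smad7, which Klf10 represses, differed by 0.66 (adjusted p = 0.0304) and Bambi by 0.97 (adjusted p = 0.0445), both under 2-fold. Ski, Skil and Smad6 differed by 0.27, 0.23 and -0.29 (adjusted p = 0.251, 0.395 and 0.238). Smad6 lay near the low value level, at log2 means of 4.07 in PICs and 4.36 in satellite cells. All 4 proliferation markers tested were called higher in satellite cells, with a median difference of -1.81.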

How the data were processed

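Total RNA of PICs and satellite cells (3 arrays each) was hybridised to 1-colour Affymetrix arrays from 200 ng per sample, per the labels' protocols. The deposited values are linear intensities that the authors made with GCRMA, per the submitters' processing notes, rounded to whole numbers from 2 to 60842; the version is not given in the sources used here. Rounding makes low steps coarse, and GCRMA draws unexpressed probe sets towards a floor. Scan batches were not tested.

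Of 45037 probe sets, 34945 had 1 symbol in the platform annotation, and symbols were updated by gene number against RefSeq (34741 matched). Values were taken to log2. Probe sets above 4 on at least 3 of the 6 arrays were kept (18433 with 1 symbol), and the one with the highest mean stood for its gene. Differences were tested with limma 3.58.1 in R 4.3.3 (lmFit, eBayes, two-sided), with Benjamini-Hochberg adjustment over all genes or all probe sets. The population fit without the block and the replicate number F test were tested on simulated data, and the population difference with the block was not. Intervals are unadjusted.

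Deviations from the population means correlated at 0.623, 0.222 and 0.579 across genes between arrays of equal replicate number, and at -0.568 to 0.0363 for unequal numbers. The pairing thus comes from the data, not the labels, and genes are not independent replicates. Alternatives covered the filter, pseudocount, probe set choice, normalization, block, array weights, trend and left-out arrays.

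The members and gene lists were chosen with earlier results of these data known. Named genes are all members and, of each list, up to 4 called genes per direction, with uncalled genes that share a role. Likeness to the member of widest spread was measured by root mean square difference. The single probe sets of Klf3, Klf7, Klf9 and Klf12 described one by one, and Klf1 with Alas2, were chosen after their values were seen.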

Additional observations from a re-analysis of the deposited data

How the results depend on the processing

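The 4 calls, Klf3, Klf5, Klf7 and Klf12, were the calls under no filter, the stricter filter, a pseudocount of 16, both normalizations and without probe sets named for related transcripts. With the mean of the probe sets Klf3 was lost (0.85) and Klf4 gained (1.19, adjusted p = 0.0391). With the replicate block 6 members were called, as were 15 probe sets and 3300 genes, the added members being Klf2 and Klf4; the block changed no other call among the 10 genes. Array weights added the same 2 members, and eBayes with a trend added Klf2 (adjusted p = 0.0494). Leaving out arrays gave 4 to 6 members, 7 to 16 probe sets and 2666 to 3283 genes called. Klf2 was called without PICs replicate 1 (1.96, adjusted p = 0.0264) and Klf4 without satellite replicate 3 (1.59, adjusted p = 0.0165), and both without the arrays numbered 3 of both populations. Over all alternatives the adjusted p of Klf2 ran between 0.00221 and 0.234 and that of Klf4 between 0.00212 and 0.312. The adjusted p of Klf10 ran between 0.00363 and 0.222 (0.149 with no filter, 0.0561 centred on the array median) and that of Klf13 between 0.0139 and 0.136 (0.0707 with no filter, 0.0562 with the mean of the probe sets). That of Klf9 ran between 0.000907 and 0.0673, above 0.05 only without the arrays numbered 1 of both populations. Probe set calls were fewest without the arrays numbered 2 of both populations. Klf6 moved between -0.51 and 0.44 when arrays were left out. It turned to -0.25 with array weights, -0.51 without PICs replicate 3, -0.32 without satellite replicate 1 and -0.16 without both arrays numbered 3, never called; the cause was not tested. The replicate number test called 340 genes with no filter and 122 with a pseudocount of 16, against 59; under the latter 1 member, Klf4, passed (adjusted p = 0.0497). Over the 31 single probe sets, a setting chosen after seeing the data, it called 0, with a lowest adjusted p of 0.0569. The 3 arrays per population limit the precision of each value.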

Other observations

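Klf2 had the widest spread of the 10 genes, and the 5 genes whose deviations on the 6 arrays lay nearest to its own were Tslp, Plk3, Batf3, Mt1 and Gcc1, at root mean square differences of 0.08 to 0.14 log2 units. Tslp encodes a cytokine of epithelium and stroma, Plk3 a stress-responsive kinase, Batf3 a partner of Jun factors and Mt1 a metallothionein. On PIC arrays 1, 2 and 3 Tslp deviated by -0.98, -0.31 and 1.30, and Klf2 by -0.92, -0.25 and 1.16. On satellite arrays 1, 2 and 3 Tslp deviated by -0.40, -0.14 and 0.55, and Klf2 by -0.45, -0.19 and 0.64. Of the 5, Gcc1 was called higher in PICs (log2 difference 1.48, adjusted p = 0.0347 in limma). With 10855 genes and 6 arrays, close matches are to be found for many genes, and the points share their arrays.

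Klf1, the erythroid member of the family, had 1 probe set, which read 17, 5 and 5 on PIC arrays 1, 2 and 3 and 17, 5 and 5 on satellite arrays 1, 2 and 3. Alas2, the enzyme of haem synthesis in red cell precursors, had log2 levels of 8.62, 5.32 and 5.36 on PIC arrays 1, 2 and 3 and 8.34, 5.13 and 5.17 on satellite arrays 1, 2 and 3. Both were highest on the array numbered 1 of each population, and the replicate number test called Alas2 (adjusted p = 0.0102). The Klf1 readings of 17 lay just above the low value level (intensity 16). Hba-a1, the other red blood cell marker with a probe set, lay at that level on every array.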
